A study of Mus musculus with 14 samples.

Results

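Transforming growth factor-β (TGF-β) is a secreted cytokine that restrains the cycling of hematopoietic stem cells and drives matrix production by stromal cells in marrow fibrosis. The ligands are secreted in a latent complex bound to latent TGF-β binding proteins and must be released before they can act. The active ligand binds the type II receptor TGFBR2, which phosphorylates the type I receptor TGFBR1, and the type I receptor phosphorylates SMAD2 and SMAD3, which enter the nucleus with SMAD4. Betaglycan, the product of Tgfbr3, presents ligand to TGFBR2, and SMAD7 is an inhibitory SMAD whose gene the pathway itself induces.

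The values of 9 genes of this pathway were examined, out of 55487 genes in the count tables. They were chosen by name and not by their measured values, and comprise the ligand genes Tgfb1, Tgfb2 and Tgfb3, the receptor genes Tgfbr1, Tgfbr2 and Tgfbr3, the binding protein gene Ltbp1, the target gene Tgfbi and the feedback inhibitor gene Smad7. RNA-seq was performed on 14 mouse libraries of the C57BL/6 strain. LSK (Lin-Sca1+c-kit+) cells, the fraction that holds the hematopoietic stem cells, and LK (Lin-c-kit+) cells, the myeloid progenitor fraction called MP in the labels, were sorted from the marrow of mice that expressed heterozygous Jak2V617F (Mx1Cre; Jak2VF/+) in PBS-treated and IL-1β-treated animals alike. Each of these populations had 3 PBS and 2 IL-1β libraries. In these mice the knock-in allele is activated by Mx1Cre, which pI-pC injection induces in hematopoietic and some other cells, and the marrow was transplanted into irradiated C57BL/6 recipients, and the labels name no step that removed remaining host cells. PBS or IL-1β was injected into the peritoneum 3 times a week for 16 weeks, at a dose that the labels print as 0.5 g and the methods give in micrograms. Mesenchymal stromal cells (MSC) were grown for 21 days from C57BL/6 marrow without the Jak2V617F allele and were given PBS or 5 ng/ml IL-1β for 72 h, with 2 libraries per treatment (PBS replicates 2 and 3, IL-1β replicates 1 and 2). Ages were not given in the sample labels. Nothing in the labels says that libraries of a group came from separate animals or cultures, so the p-values measure only the spread between these libraries.

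The libraries held 4393233 to 30871055 counted read pairs, and every IL-1β library of LSK or LK cells was shallower than every PBS library of the same population. Coordinates are those of the files, on GRCm38. Levels that are compared between genes are given as FPKM, which divides the counts by the exon length and the library size, scaled over all 14 libraries. Values that belong to a test are CPM, which divides by the library size alone, on the scale of that test's own libraries. Calls required an adjusted p under 0.05 in the quasi-likelihood test of edgeR, adjusted over all genes tested, and a log2 fold change beyond 0.5 in either direction. In checks of the sort, all 7 LSK marker genes were called higher in LSK than in LK cells under PBS, and Ly6a, which encodes Sca-1, was at 30.4 ± 6.81 CPM (SD, n = 3) in LSK and 0.570 ± 0.278 CPM (SD, n = 3) in LK cells on the scale of all 14 libraries. Of the 6 LK marker genes, 4 were called lower in LSK cells (Car1, Gata1, Elane and Mpo), and 2 (Cd34 and Kit) were called higher there, against the direction of the list. In the MSC libraries 9 of 12 stromal marker genes exceeded 3 counts in each PBS library and all 12 in each IL-1β library, while Lepr was at 0 counts in both PBS libraries. All 16 macrophage marker genes were also above 3 counts in each MSC library, and their summed level was far above that of the stromal list. MSC PBS replicate 3 had 0 counts of Xist, against 325 to 2103 in the other 3 MSC libraries, so it stood apart from them. LSK PBS replicate 2 stood apart from the other LSK PBS libraries in several of the genes described here. The transcript pools are bulk, so fewer cells of a type and less RNA per cell cannot be told apart.

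The upstream sequences of 3 genes are shown because they belong to the results that follow, since Tgfbi and Tgfbr2 rose with IL-1β in MSC and Tgfb1 was the most abundant ligand gene and was called in no comparison. The RefSeq promoter table (GRCm38.p6) matched 6 of the 9 genes, with no entry for Tgfb3, Tgfbr3 and Smad7. Each sequence covers the 250 bases before the RefSeq start site, except that Tgfbi is given for the 187 bases that lie before the gene's first annotated base in the count tables. Capitals mark the SMAD box CAGAC on either strand (GTCTG on the reverse), the core that SMAD3 and SMAD4 bind.
Tgfbi (chr13:56609336-56609522, plus strand): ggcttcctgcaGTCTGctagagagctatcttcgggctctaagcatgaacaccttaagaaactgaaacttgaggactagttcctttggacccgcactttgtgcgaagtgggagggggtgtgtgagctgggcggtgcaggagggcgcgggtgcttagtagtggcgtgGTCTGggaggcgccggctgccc
Tgfbr2 (chr9:116175364-116175613, minus strand): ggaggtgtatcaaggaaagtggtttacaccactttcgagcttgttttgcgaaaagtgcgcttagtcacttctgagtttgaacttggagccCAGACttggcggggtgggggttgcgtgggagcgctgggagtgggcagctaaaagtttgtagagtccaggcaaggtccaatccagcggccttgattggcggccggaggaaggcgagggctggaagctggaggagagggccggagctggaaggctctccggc
Tgfb1 (chr7:25686752-25687001, plus strand): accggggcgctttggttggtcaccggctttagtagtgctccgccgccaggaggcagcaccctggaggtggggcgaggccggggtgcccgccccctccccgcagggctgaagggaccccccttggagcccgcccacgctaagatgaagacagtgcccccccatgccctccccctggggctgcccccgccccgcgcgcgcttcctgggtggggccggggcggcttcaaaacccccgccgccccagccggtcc
Tgfbi held 2 SMAD boxes, with first bases at -239 and -85 from the RefSeq start site, Tgfbr2 held 1, with its first base at -160, and Tgfb1 held 0. Among all 32851 promoters of the same 250 bases, 42.2% held at least 1 such box. The AP-1 motif TGANTCA, also searched on both strands and held by 6.75% of all promoters, was not found in these 3 windows. Of the genes with an entry whose sequences are not shown, Tgfb2 held 2 SMAD boxes. Tgfbr1 held 0 and 1 in its separate windows, and Ltbp1 held 1 and 2. None of these genes was called with IL-1β in MSC. The motif matches describe letters in the windows and not sites in use.

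The 3 ligand genes differed in where they were detected. Tgfb1 (ENSMUSG00000002603, chromosome 7, 25687002 to 25705077), the isoform that blood cells and marrow stroma make most of, supplied 98.4% to 99.9% of the summed ligand FPKM in the LSK and LK PBS libraries. Its level was 76.1, 58.2 and 82.5 FPKM in the LSK PBS libraries and 80.6 and 97.4 FPKM in the LSK IL-1β libraries. In LK cells it was 52.3, 56.1 and 77.7 FPKM with PBS and 77.1 and 70.9 FPKM with IL-1β. MSC held the highest levels, at 124.9 and 114.9 FPKM with PBS and 112.9 and 103.3 FPKM with IL-1β. The order of the group means was thus MSC PBS, MSC IL-1β, LSK IL-1β, LK IL-1β, LSK PBS and LK PBS, and the ranges of the last 3 groups overlapped each with its neighbor.

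Tgfb2 (ENSMUSG00000039239, chromosome 1, 186622792 to 186705989), a ligand isoform known from development and stroma, was at 0 to 4 counts in each LSK and LK library and was too low to be tested there. In MSC it was at 4.60 and 2.39 FPKM with PBS and 3.11 and 2.83 FPKM with IL-1β. Measured against a floor of 3 counts per library, its mean level in MSC PBS libraries was at least 107.5-fold higher than in LSK PBS and at least 102.7-fold higher than in LK PBS libraries. No test was made between MSC and sorted cells, because population, genotype and culture cannot be told apart. Tgfb3 (ENSMUSG00000021253, chromosome 12, 86056745 to 86079041), the third isoform, was at 20.3 and 7.82 FPKM in MSC with PBS and 4.97 and 4.09 FPKM with IL-1β, so that the PBS libraries differed from each other more than the IL-1β libraries did. In LSK PBS libraries it was at 20, 46 and 24 counts, or 0.391, 0.961 and 0.365 FPKM. Tgfb1 made up 83.4% and 91.8% of ligand FPKM in the MSC PBS libraries, and 93.3% and 93.7% in the MSC IL-1β libraries.

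The signaling receptors were far higher in MSC than in sorted cells. Tgfbr1 (ENSMUSG00000007613, chromosome 4, 47353222 to 47414931) was at 42.5 and 45.4 FPKM in MSC PBS, 39.9 and 37.5 FPKM in MSC IL-1β, 6.29 ± 0.578 FPKM (SD, n = 3) in LSK PBS, 5.96 ± 3.01 (SD, n = 2) in LSK IL-1β, 4.74 ± 0.00813 (SD, n = 2) in LK IL-1β and 3.52 ± 0.195 (SD, n = 3) in LK PBS libraries. The LSK IL-1β range overlapped those of LSK PBS and LK IL-1β, and the 2 MSC groups did not overlap. Tgfbr2 (ENSMUSG00000032440, chromosome 9, 116084293 to 116175360) was at 48.4 ± 1.28 FPKM (SD, n = 2) in MSC IL-1β, 26.2 ± 6.27 (SD, n = 2) in MSC PBS, 9.39 ± 0.419 (SD, n = 3) in LSK PBS, 4.85 ± 2.27 (SD, n = 2) in LSK IL-1β, 3.32 ± 0.916 (SD, n = 2) in LK IL-1β and 2.81 ± 0.621 (SD, n = 3) in LK PBS libraries. Of these neighbors, only the last 3 groups overlapped. Tgfbr3 (ENSMUSG00000029287, chromosome 5, 107106570 to 107289629) was the receptor gene with the narrowest spread, from 2.93 ± 0.457 FPKM (SD, n = 2) in MSC PBS to 5.87 ± 0.226 FPKM (SD, n = 2) in MSC IL-1β libraries, with LK PBS at 5.40 ± 0.614 (SD, n = 3) and LSK PBS at 5.30 ± 0.483 (SD, n = 3). MSC PBS libraries therefore held the least Tgfbr3 and MSC IL-1β libraries the most, and the MSC IL-1β, LK PBS and LSK PBS ranges overlapped. Tgfbr3 shares its strand with 3 overlapping gene models and Ltbp1 with 1, so read pairs in the shared bases could have gone uncounted.

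Tgfbi (ENSMUSG00000035493, chromosome 13, 56609523 to 56639562), which encodes a secreted matrix protein first found as a TGF-β-induced transcript, spanned the widest range of the genes detected in every library. It reached 191.8 and 180.7 FPKM in MSC IL-1β and 53.9 and 78.4 FPKM in MSC PBS libraries. In sorted cells it was at 6.91 ± 0.120 FPKM (SD, n = 2) in LSK IL-1β, 2.37 ± 0.420 (SD, n = 3) in LSK PBS, 2.11 ± 0.259 (SD, n = 2) in LK IL-1β and 1.51 ± 0.463 (SD, n = 3) in LK PBS libraries. Ltbp1 (ENSMUSG00000001870, chromosome 17, 75005568 to 75392512), which tethers latent ligand to the matrix, was low everywhere, with 2.15 ± 0.374 FPKM (SD, n = 2) in MSC PBS, 2.13 ± 0.0424 (SD, n = 2) in MSC IL-1β and 0.722 ± 0.353 (SD, n = 3) in LK PBS libraries as the 3 highest group means. The LSK IL-1β, LK IL-1β and LSK PBS means of Ltbp1 were 0.258 ± 0.0124 (SD, n = 2), 0.189 ± 0.0712 (SD, n = 2) and 0.180 ± 0.139 FPKM (SD, n = 3). Smad7 (ENSMUSG00000025880, chromosome 18, 75367529 to 75395935) stayed between 1.83 and 3.75 FPKM in all 6 group means, with MSC above the sorted cells and no gap between the ranges of neighboring LSK and LK groups.

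**Figure D1:**
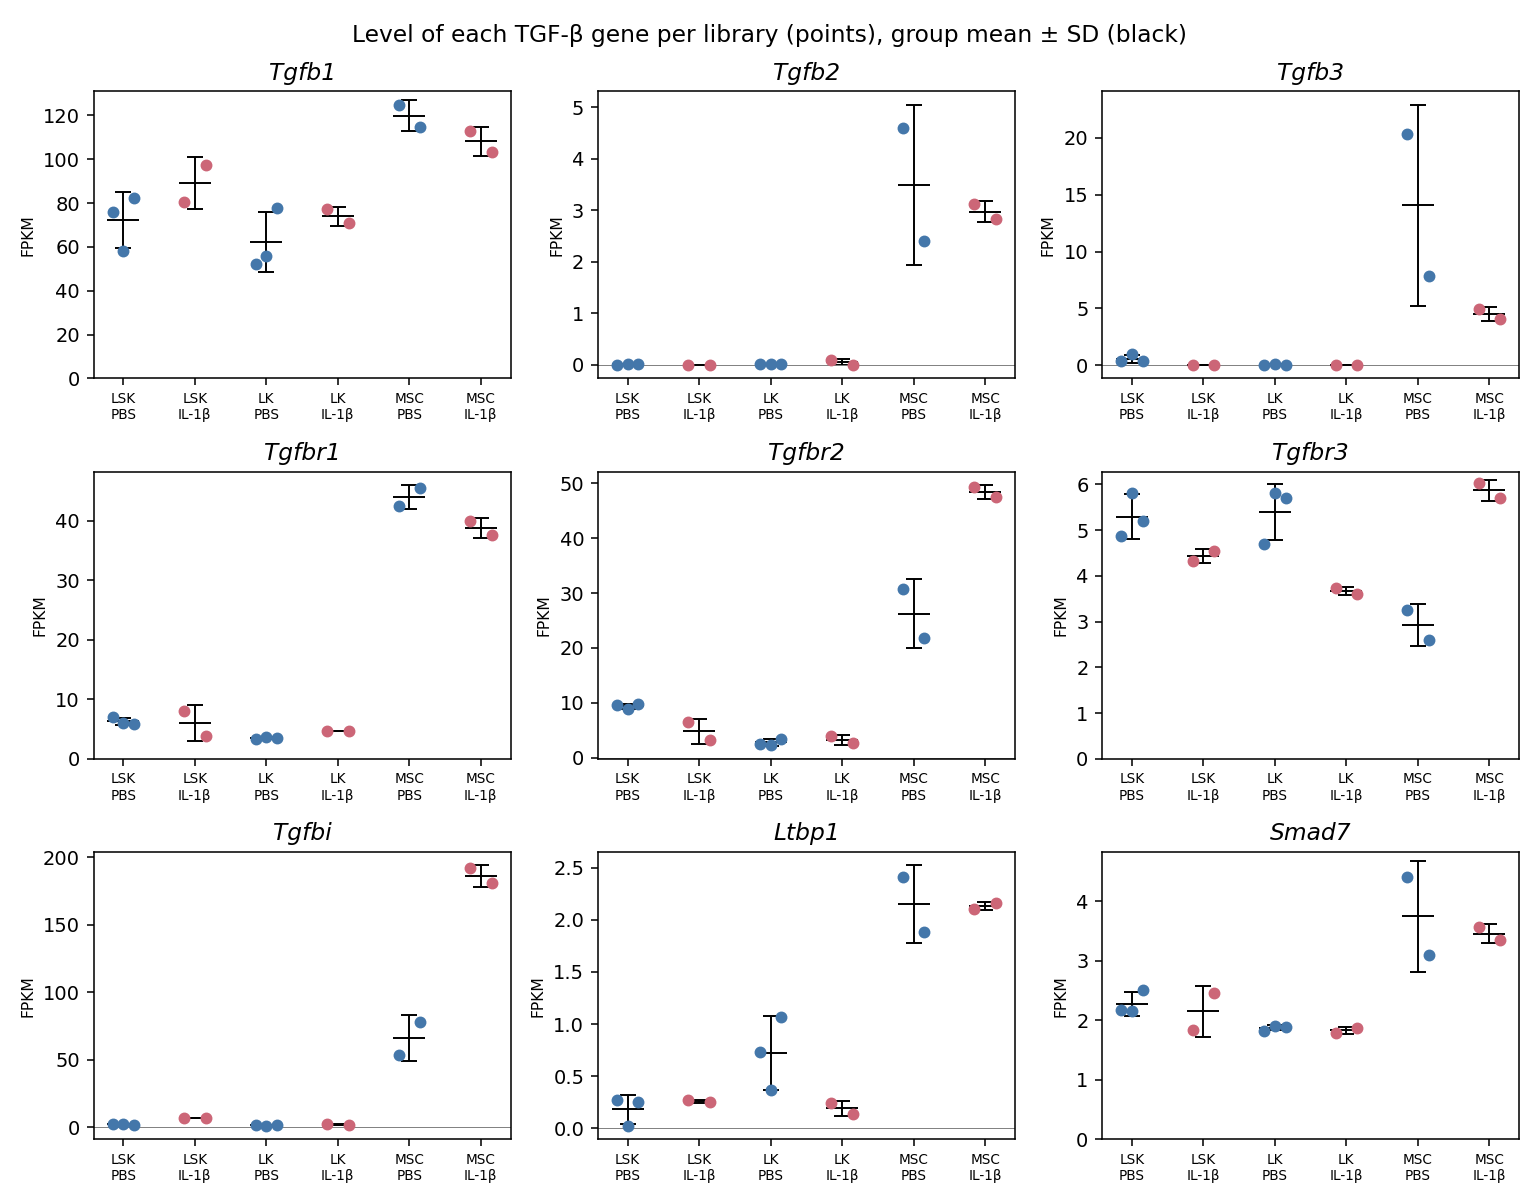
Level of each of the 9 genes in FPKM (vertical axis, linear, scaled separately in each panel) in each of the 14 libraries, grouped on the horizontal axis by population and treatment (blue points PBS, red points IL-1β, black bars mean ± SD). Tgfb2 is near 0 in all LSK and LK libraries, Tgfbi reaches 191.8 FPKM in MSC with IL-1β, and Tgfb1 lies between 52.3 and 124.9 FPKM in all 14 libraries.

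The comparison of LSK with LK cells under PBS asked where the stem and progenitor fractions express the pathway without added cytokine. Both signaling receptor genes and Tgfb3 were higher in LSK cells. Tgfbr2 was at 89.8, 81.4 and 91.2 CPM in LSK and 22.6, 20.1 and 31.3 CPM in LK libraries, and the groups were far apart. Its log2 fold change was 1.83 (SE 0.21, edgeR adjusted p = 0.000587). Tgfbr1 was at 52.3, 43.6 and 44.3 CPM in LSK and 23.2, 25.6 and 24.8 CPM in LK libraries, again without overlap (log2 fold change 0.93, SE 0.18, edgeR adjusted p = 0.00520). Tgfb3 had 20, 46 and 24 counts in LSK and 3, 5 and 2 counts in LK libraries. Its fitted log2 fold change was 3.24 (SE 0.76, edgeR adjusted p = 0.0124), and the ratio of the summed counts, 90 against 10, was 9.32 after scaling, with an exact 95% interval for counting error of 4.84 to 20.1. It passed the filter on low counts only through the LSK libraries, so its entry into the test was not independent of this difference. Tgfb3 was no longer called without any of the LK PBS replicates 1, 2 or 3 (adjusted p of 0.0726, 0.0657 and 0.0552), and its adjusted p ran from 0.00200 to 0.0726 over all alternatives, while Tgfbr1 and Tgfbr2 were called in every one.

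Of the 8 genes tested in that comparison, 3 were called, all higher in LSK, where 31.2% of all 12737 genes tested were called and 18.4% were called higher. The 3 include Tgfb3, whose entry into the test depended on its LSK libraries. The libraries of 6 genes did not overlap between populations, against 50.4% of all genes tested. Tgfbi (11.9, 10.3 and 8.25 CPM in LSK against 6.71, 3.91 and 7.64 in LK, adjusted p = 0.150) and Smad7 (11.3, 10.9 and 12.97 CPM against 8.78, 9.09 and 9.29, adjusted p = 0.312) lay higher in every LSK library, together with the 3 called genes. Ltbp1 lay lower in every LSK library, at 3.27, 0.236 and 3.12 CPM against 8.28, 4.12 and 12.4 CPM in LK. Its log2 fold change of -1.89 (SE 0.79) had an edgeR adjusted p of 0.101. LSK and LK libraries of the same number varied together to a small degree, and with the replicate number as a block Ltbp1 was called (log2 fold change -2.23, adjusted p = 0.0131, range over all alternatives 0.0131 to 0.285). LSK PBS replicate 2 held 3 counts of Ltbp1, where the other LSK PBS replicates held 43 and 53. With all 3 LSK libraries in the fit, Ltbp1 thus passed the filter on low counts only with the help of the LK libraries. Its entry into that test was not independent of the difference. Without LSK PBS replicate 2 Ltbp1 was called too (log2 fold change -1.37, edgeR adjusted p = 0.0474). Tgfb1 and Tgfbr3 overlapped between the populations, with log2 fold changes of 0.31 (SE 0.22) and 0.06 (SE 0.18).

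Treatment of Jak2VF/+ mice with IL-1β addressed how the cytokine alters the transcripts of their stem and progenitor cells. In LSK cells none of the 8 genes tested was called by edgeR (0.632% of 13132 genes tested were called). An unadjusted p under 0.05 was found for 3 of them, against 18.5% of all genes tested. DESeq2 called 2 of the 8, where it called 891 of all 13132 genes. With limma-voom 0 of the 8 were called, and 21 of all genes. The clearest differences were a higher Tgfbi, a lower Tgfbr2 and the loss of Tgfb3 counts. Tgfbi was at 11.4, 10.3 and 8.19 CPM with PBS and 28.6 and 29.5 CPM with IL-1β, so that both IL-1β libraries lay well above all PBS libraries. Its log2 fold change was 1.54 (SE 0.33, edgeR adjusted p = 0.0760). DESeq2 gave an adjusted p of 0.00232, the fit without PBS replicate 2 gave 0.0437, and all alternatives ran from 0.00232 to 0.434 with log2 fold changes from 1.42 to 1.67 when each library was left out.

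Tgfb3 had 20, 46 and 24 counts in the LSK PBS libraries and 0 counts in both IL-1β libraries. It passed the filter on low counts only through the PBS libraries, so its entry into the test was not independent of this difference. The IL-1β libraries were shallower, but the mean PBS level of 2.16 CPM would have given 17.7 and 8.70 counts at their depths. Against a floor of 3 counts per IL-1β library, the mean PBS level of Tgfb3 was 3.89-fold higher, with an SD of 2.26 over the PBS libraries (n = 3). That floor covers counting error only. LSK PBS replicate 2 carried much of the PBS mean. Without it the mean was 1.43 CPM, the expected counts were 11.8 and 5.78, and the level was 2.59-fold above the floor. The edgeR adjusted p of Tgfb3 was 0.131, and the DESeq2 adjusted p was 0.0271 (range over all alternatives 0.0271 to 0.543).

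Tgfbr2 was at 86.3, 80.9 and 90.5 CPM in LSK cells with PBS and 58.8 and 29.7 CPM with IL-1β. The 2 treatments did not overlap, but the IL-1β libraries differed widely from each other, and the log2 fold change of -0.95 (SE 0.32) had an edgeR adjusted p of 0.174. Tgfbr1 overlapped between treatments, at 50.2, 43.3 and 44.0 CPM with PBS and 58.8 and 28.0 CPM with IL-1β (log2 fold change -0.07, SE 0.33). The ratio of Tgfbr2 to Tgfbr1 FPKM within each library was 1.37, 1.49 and 1.64 in the LSK PBS libraries and 0.798 and 0.848 in the LSK IL-1β libraries, which agreed closely although their receptor levels did not. An exact two-sided permutation test of the ratio gave p = 0.2 (the doubled smaller tail), the smallest that 3 against 2 libraries allow.

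In the same LSK libraries, Tgfbr3 lay slightly lower with IL-1β (35.2, 42.2 and 38.7 CPM against 31.5 and 33.2 CPM, log2 fold change -0.26, SE 0.26, edgeR adjusted p = 0.626). The libraries of Tgfb1, Tgfbr1, Ltbp1 and Smad7 overlapped between treatments, so 4 of the 8 genes tested did not overlap, against 39.6% of all genes. Tgfb1 was at 424, 325 and 473 CPM with PBS and 452 and 549 CPM with IL-1β (log2 fold change 0.30, SE 0.26, edgeR adjusted p = 0.567). Ltbp1 was at 3.14, 0.235 and 3.10 CPM with PBS and 3.16 and 2.97 CPM with IL-1β. Without PBS replicate 2 its log2 fold change went from 0.50 to -0.00095. Smad7 was at 10.8, 10.8 and 12.9 CPM with PBS and 9.25 and 12.4 CPM with IL-1β.

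Marker genes moved in the same libraries. The summed level of the 7 LSK marker genes was 877 to 1043 CPM in LSK PBS and 366 to 499 CPM in LSK IL-1β libraries, with all 7 genes lower without overlap, 3 of them called and none at 0. The summed level of 13 neutrophil granule genes was 1990 to 2806 CPM with PBS and 9067 to 10536 CPM with IL-1β, with 4 of the 12 tested called higher. Their part in the differences of Tgfbi, Tgfbr2 and Tgfb3 was not tested.

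**Figure D2:**
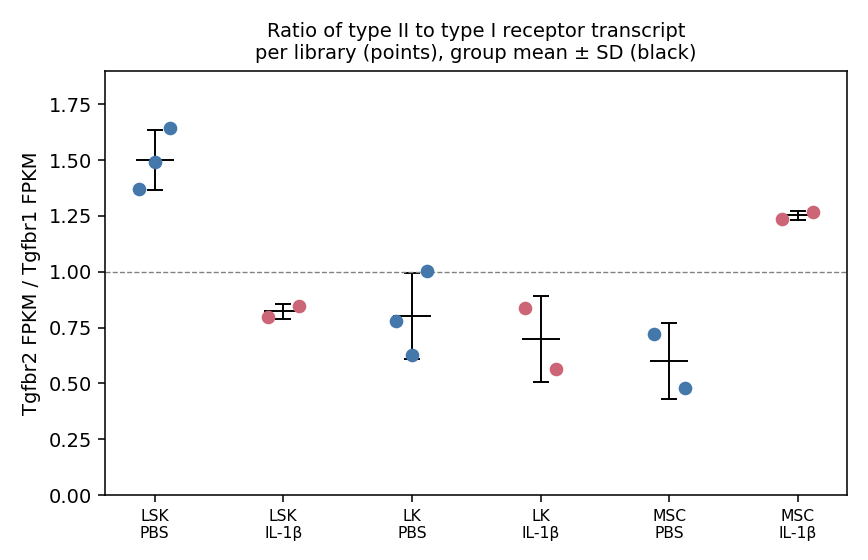
Ratio of Tgfbr2 FPKM to Tgfbr1 FPKM (vertical axis, linear from 0, dashed line at equal levels) in each of the 14 libraries by population and treatment (blue PBS, red IL-1β, black bars mean ± SD). The LSK PBS libraries lie at 1.37 to 1.64 and the LSK IL-1β libraries at 0.798 and 0.848, and in MSC the IL-1β libraries (1.24 and 1.27) lie above the PBS libraries (0.722 and 0.480).

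In LK cells 7 of the 9 genes were tested and edgeR called none, against 9.34% of all 12835 genes tested. Unadjusted p-values were under 0.05 for 3 of the 7 genes, against 24.7% of all genes tested. DESeq2 called 2 of the 7, where it called 1536 of all 12835 genes. With limma-voom 0 of the 7 were called, and 986 of all genes. Tgfbr1 was at 22.3, 24.9 and 23.7 CPM with PBS and 33.7 and 33.4 CPM with IL-1β, with a gap between the treatments (log2 fold change 0.50, SE 0.14, edgeR adjusted p = 0.0553). DESeq2 gave 0.0339, and the range over all alternatives was 0.0276 to 0.480. Ltbp1 was at 7.95, 4.01 and 11.9 CPM with PBS and 2.78 and 1.60 CPM with IL-1β, lower in both IL-1β libraries than in any PBS library. Its log2 fold change was -1.83 (SE 0.54, edgeR adjusted p = 0.0713, range over all alternatives 0.000165 to 0.376). It was called without LK PBS replicate 2 (adjusted p = 0.0425) and without LK PBS replicate 3 (0.0324). Tgfbr3 was at 31.4, 39.0 and 38.6 CPM with PBS and 26.5 and 25.5 CPM with IL-1β (log2 fold change -0.48, SE 0.15, edgeR adjusted p = 0.0881).

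The other LK values lay closer together. Tgfbi was at 6.44, 3.80 and 7.30 CPM with PBS and 9.41 and 7.86 CPM with IL-1β (log2 fold change 0.57, SE 0.34), and was the fourth of the 7 genes whose treatments did not overlap, against 45.7% of all genes. Tgfb1 was at 269, 290 and 406 CPM with PBS and 422 and 385 CPM with IL-1β, so that LK PBS replicate 3 reached the level of the IL-1β libraries. Its log2 fold change was 0.33 (SE 0.17, edgeR adjusted p = 0.294), and without LK PBS replicate 3 it was 0.54 and called (adjusted p = 0.00169), as was Tgfbr1 (0.0276). Tgfbr2 (21.7, 19.5 and 29.8 CPM against 35.2 and 23.6 CPM) and Smad7 (8.42, 8.84 and 8.87 CPM against 8.74 and 9.14 CPM) overlapped. The 13 neutrophil granule genes summed to 4344 to 9257 CPM in LK PBS and 16974 to 19756 CPM in LK IL-1β libraries, with 8 of 12 tested called higher, and the 8 erythroid genes to 3046 to 3888 CPM and 2036 to 2182 CPM, with 3 called lower. Of the megakaryocyte and platelet list 6 of 8 tested genes lay lower without overlap, with 1 called (Vwf) and a median log2 fold change of -1.56, while its summed level overlapped between treatments (120 to 173 CPM with PBS, 111 to 220 CPM with IL-1β). Of the macrophage list 3 of 13 were called lower and 1 higher (176 to 244 CPM with PBS, 155 to 185 CPM with IL-1β, Mertk at 0 with IL-1β). The part of these lists in the LK values, those of Ltbp1 and Tgfbr3 included, was not tested.

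Whether LSK and LK cells responded differently was tested as an interaction over their 10 libraries. None of the 8 genes tested was called by edgeR, DESeq2 or limma-voom (edgeR called 0.0289% of 13839 genes, or 4, and 24 with the replicate number as a block, with 0 of the 8 among them). DESeq2 called 334 of all genes and limma-voom 1. Against 14.2% of all genes tested, 1 of the 8 had an unadjusted p under 0.05. This was Tgfbr2, for which the response in LSK cells was lower than that in LK cells by a log2 difference of -1.30 (SE 0.41, edgeR adjusted p = 0.224). The difference was 0.94 (SE 0.47, adjusted p = 0.389) for Tgfbi and 2.29 (SE 1.16, adjusted p = 0.391) for Ltbp1. For Tgfbr1 it was -0.61 (SE 0.38), for Tgfbr3 0.19 (SE 0.28), for Tgfb1 -0.07 (SE 0.32) and for Smad7 -0.17 (SE 0.41). The fitted value of Tgfb3, -6.24 (SE 2.89, edgeR adjusted p = 0.358), rested on LSK IL-1β libraries with 0 counts. Tgfb2 was not tested. The common biological coefficient of variation was 0.377 between LSK and 0.183 between LK libraries of a treatment.

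In MSC all 9 genes were tested, and IL-1β raised Tgfbi, Tgfbr3 and Tgfbr2. These 3 calls compare with 11.4% of all 13239 genes called and 7.14% called higher. Of all calls in MSC, 62.4% were higher, and 49.6% with upper-quartile factors. Tgfbi was at 172 and 244 CPM with PBS and 574 and 569 CPM with IL-1β (log2 fold change 1.46, SE 0.18, edgeR adjusted p = 0.00966). Tgfbr3 was at 18.0 and 14.1 CPM with PBS and 31.3 and 31.2 CPM with IL-1β (log2 fold change 0.98, SE 0.16, edgeR adjusted p = 0.0194). Tgfbr2 was at 212 and 147 CPM with PBS and 321 and 325 CPM with IL-1β (log2 fold change 0.85, SE 0.18, edgeR adjusted p = 0.0400). For each of them the IL-1β libraries were close together and above both PBS libraries. Without MSC IL-1β replicate 1 the adjusted p-values were 0.154 for Tgfbi, 0.281 for Tgfbr3 and 0.338 for Tgfbr2, and without MSC IL-1β replicate 2 they were 0.116, 0.225 and 0.288. Those fits leave a lone IL-1β library that is assumed to vary like the PBS libraries. Without MSC PBS replicate 3 all 3 genes passed the threshold, as did lower values of Tgfb2 and Tgfb3, but there the spread came from the IL-1β pair alone, and the lone PBS library was assumed to vary as little.

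The remaining 6 genes were not called in MSC. Tgfb3 was at 58.2 and 21.8 CPM with PBS and 13.3 and 11.6 CPM with IL-1β, and Tgfb3 libraries did not overlap between treatments. Its log2 fold change of -1.64 (SE 0.49) had an edgeR adjusted p of 0.105, DESeq2 gave 0.00173, and without MSC PBS replicate 2, which was the higher of the PBS libraries, the log2 fold change was -0.78 (adjusted p = 0.000448). Over all alternatives its adjusted p ran from 4.11e-09, without MSC PBS replicate 3, to 0.534. The fits without a PBS replicate take their spread from the 2 IL-1β libraries alone, so that their small p-values say nothing of the spread between PBS libraries, which held 58.2 and 21.8 CPM. Tgfbr1, at 235 and 245 CPM with PBS and 207 and 205 CPM with IL-1β, lay lower by a small margin (log2 fold change -0.22, SE 0.10, edgeR adjusted p = 0.199). Tgfb1 did so too, at 533 and 478 CPM against 452 and 435 CPM (log2 fold change -0.19, SE 0.11). With the 3 called genes, 6 of 9 genes did not overlap between treatments, against 61.2% of all genes tested. Tgfb2, Ltbp1 and Smad7 overlapped, with log2 fold changes of -0.24 (SE 0.32), -0.04 (SE 0.18) and -0.13 (SE 0.22). The ratio of Tgfbr2 to Tgfbr1 FPKM was 0.722 and 0.480 in the PBS libraries and lay above 1 in the IL-1β libraries, at 1.24 and 1.27 (exact permutation test, two-sided p = 0.333, the smallest that 2 against 2 allow).

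The makeup of the MSC libraries also differed between treatments. The 16 macrophage genes summed to 25870 and 29549 CPM with PBS and 52487 and 53664 CPM with IL-1β, with 8 of 16 called higher, 1 called lower and none at 0. Lyz2, which encodes lysozyme, made up 5819 and 8433 CPM of that sum with PBS and 24888 and 25042 CPM with IL-1β, and the other genes of the list summed to 20051 and 21116 CPM with PBS and 27599 and 28623 CPM with IL-1β. The 12 stromal genes summed to 1764 and 3457 CPM with PBS and 4757 and 5153 CPM with IL-1β, with 1 called higher. The part of either list in the rise of Tgfbi, Tgfbr2 and Tgfbr3 was not tested. MSC PBS replicate 3, with 0 counts of Xist, was 1 of the 2 PBS libraries, while both IL-1β libraries held Xist (2103 and 535 counts). The part of this difference in the 3 calls was not tested either.

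**Figure D3:**
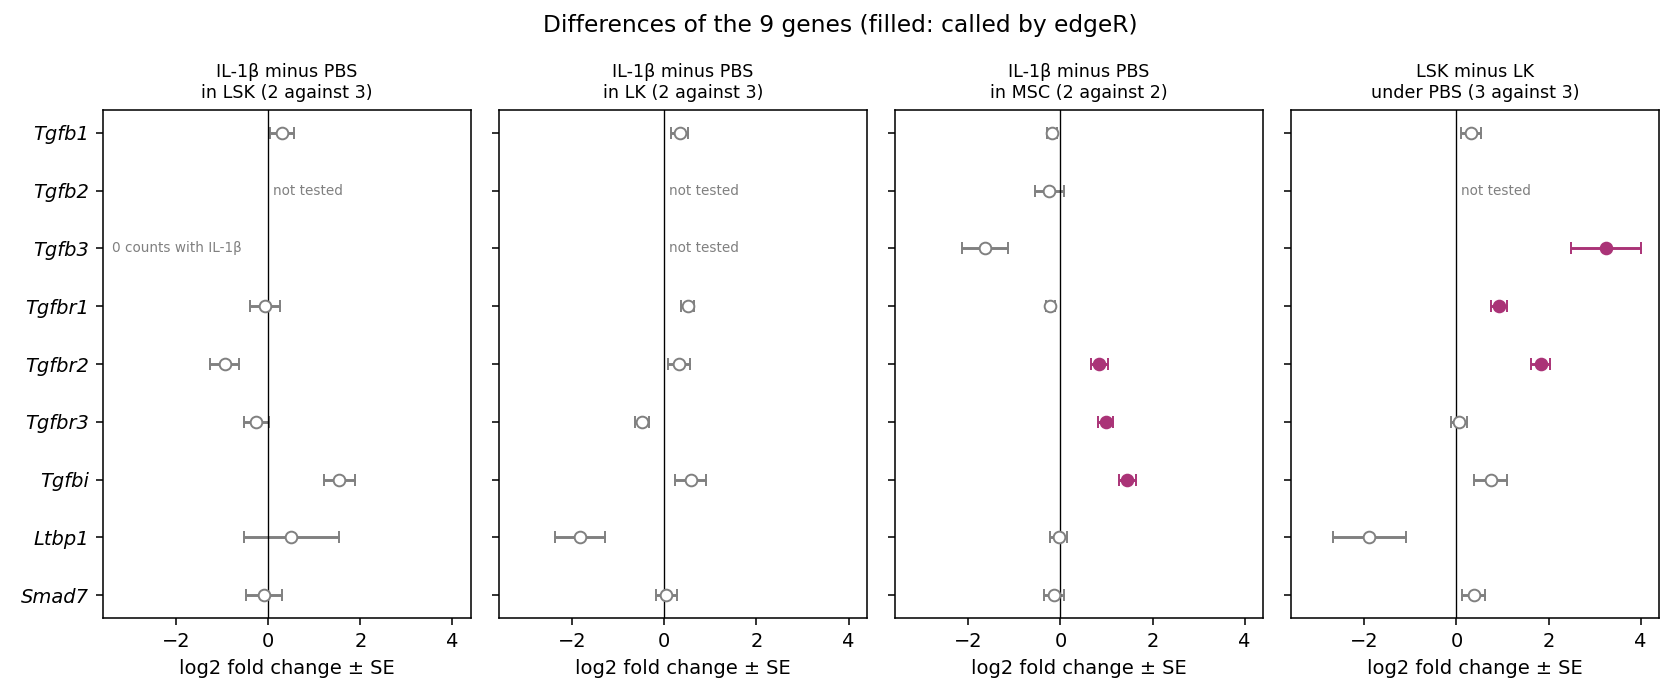
Fitted log2 fold change ± SE (horizontal axis) of each of the 9 genes in 4 comparisons, with filled points for genes called by edgeR and open points for the others. Called points are Tgfbr2, Tgfbr3 and Tgfbi in MSC and Tgfb3, Tgfbr1 and Tgfbr2 in LSK against LK cells, and Tgfb3 in LSK cells is marked in words because both IL-1β libraries had 0 counts.

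The median log2 fold change of the tested genes of the 9 was -0.08 in LSK cells (all genes tested -0.06), 0.32 in LK cells (-0.03), -0.13 in MSC (0.00437) and 0.55 in LSK against LK cells (0.04). The LSK and LK comparisons under PBS and with IL-1β share their PBS libraries, so their values are given side by side only.

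A further 61 genes of the pathway were described in 4 lists, for latency and activation, for other receptors and coreceptors, for SMADs and their regulators, and for textbook target genes. The lists were chosen with earlier results of these data known, so their counts and medians are descriptive and no enrichment was tested. Between LSK and LK cells under PBS, 24 of the 42 tested were called higher in LSK and 1 lower, where 31.2% of all genes tested were called and 18.4% called higher, the shares against which the counts of the single lists below also stand. Among genes of latency and activation, 7 of 11 were higher and none lower. They included Fbn1, which encodes fibrillin-1 (log2 fold change 3.40, SE 0.53), the integrin β3 gene Itgb3 (2.75, SE 0.32), the binding protein genes Ltbp3 (2.29, SE 0.26) and Ltbp4 (1.89, SE 0.58), and Emilin1 (1.23, SE 0.20). Fbn1 (0.663 to 1.12 CPM in LK cells) and Ltbp4 (0.581 to 0.974 CPM) passed the filter on low counts only through the LSK libraries. Their entry into the test, and into these counts, was thus not independent of the difference. The list's median was 1.23, against 0.04 for all genes tested. Itgb3 is also a megakaryocyte gene, and 5 of 8 tested genes of the megakaryocyte and platelet list, which contains it, were higher in LSK cells as well, with summed levels of 485 to 591 CPM in LSK and 120 to 173 CPM in LK PBS libraries. Its part in the Itgb3 value was not tested.

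Of the other receptors, Acvr1b (log2 fold change 2.49, SE 0.24) and Acvr1 (2.06, SE 0.36), which encode type I receptors of the activin and BMP branches, and Fkbp1a (1.12, SE 0.32), whose product binds type I receptors, were higher in LSK cells, or 3 of 5 tested. Among the SMADs and their regulators 9 of 16 were higher and 1 lower. The signal transducers Smad3 and Smad4 were at 97.1 ± 11.1 and 101.7 ± 22.1 CPM in LSK and at 40.7 ± 4.80 and 38.1 ± 4.19 CPM in LK cells (SD, n = 3 each), with log2 fold changes of 1.25 (SE 0.17) and 1.42 (SE 0.20). The inhibitory Smad6 had a larger fold change of 3.62 (SE 0.73), but its LSK libraries ranged from 3.88 to 21.0 CPM. Smad6, at 0.497 to 1.27 CPM in LK cells, passed the filter on low counts only through the LSK libraries. Usp15, which encodes a deubiquitinase acting on the receptor complex, was the gene called lower (log2 fold change -0.56, SE 0.15). Of the textbook target genes 7 of 14 were higher, among them the cell-cycle inhibitor Cdkn1c (log2 fold change 3.46, SE 0.53) and Ldlrad4, a SMAD-induced inhibitor of the pathway (1.71, SE 0.37). Cdkn1c, at 0.475 to 0.746 CPM in LK cells, also passed the filter only through the LSK libraries. The entry of Smad6 and Cdkn1c into the test was thus not independent of their difference.

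With IL-1β in LSK cells, 1 of the 44 tested genes of these lists was called (0.632% of all genes tested), and 13 had an unadjusted p under 0.05 (18.5% of all genes tested). This gene was Id1, a SMAD target of the BMP and TGF-β branches that encodes an inhibitor of differentiation, at 1.03 ± 0.763 CPM (SD, n = 3) with PBS and 25.7 ± 7.54 CPM (SD, n = 2) with IL-1β. The log2 fold change of Id1 was 4.60 (SE 0.67, edgeR adjusted p = 0.0207). The medians of the receptor list (-0.72) and of the SMAD list (-0.36) lay below that of all genes tested (-0.06) with no member called. In LK cells 5 of 43 were called higher and 2 lower, against 9.34% of all genes tested called in either direction. Id1 rose again, from 1.82 ± 0.577 CPM (SD, n = 3) to 10.4 ± 2.91 CPM (SD, n = 2), with a log2 fold change of 2.52 (SE 0.38, edgeR adjusted p = 0.00669). Bhlhe40 (log2 fold change 1.94, SE 0.35), Emilin1 (1.37, SE 0.20), the integrin αv gene Itgav (1.31, SE 0.23) and Nrros, whose product anchors latent TGF-β1 on myeloid cells (0.62, SE 0.12), rose too. The endothelial coreceptor gene Eng fell (log2 fold change -0.60, SE 0.10), as did the cell-cycle inhibitor Cdkn1a (-1.29, SE 0.27). In the interaction test over both populations, edgeR called 0 of the 47 genes tested and 13 had an unadjusted p under 0.05 (14.2% of all genes tested).

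In MSC 6 of 60 tested genes were called higher and 7 lower, where 11.4% of all genes tested were called and 7.14% called higher. The matrix proteoglycan gene Dcn, whose product binds TGF-β, rose from 73.7 ± 14.6 CPM with PBS to 223.9 ± 16.4 CPM with the cytokine (SD, n = 2 each, log2 fold change 1.60, SE 0.16, edgeR adjusted p = 0.00513). The proprotein convertase gene Furin (log2 fold change 0.70, SE 0.15), Nrros (0.65, SE 0.10) and the type I receptor gene Acvrl1 (0.69, SE 0.13) rose, and so did the SMAD corepressor genes Skil (0.79, SE 0.10) and Ski (0.52, SE 0.12). Itgb3 (log2 fold change -1.29, SE 0.14) and Fkbp1a (-0.75, SE 0.10) fell.

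Of the 26 textbook target genes tested in MSC, 5 fell and 2 rose, the latter being Ski and Skil, against the same 11.4% of all genes. Those that fell were Cdkn1c, from 147 ± 71.0 to 15.5 ± 0.117 CPM (SD, n = 2 each), the smooth-muscle gene Cnn1 (log2 fold change -1.49, SE 0.30), Id1 (-1.01, SE 0.20), Bhlhe40 (-0.52, SE 0.10) and Id3 (-0.51, SE 0.10). The median of this list was -0.34, against 0.00437 for all genes tested. The rise of Tgfbi in MSC thus stood beside target genes called in either direction.

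**Figure D4:**
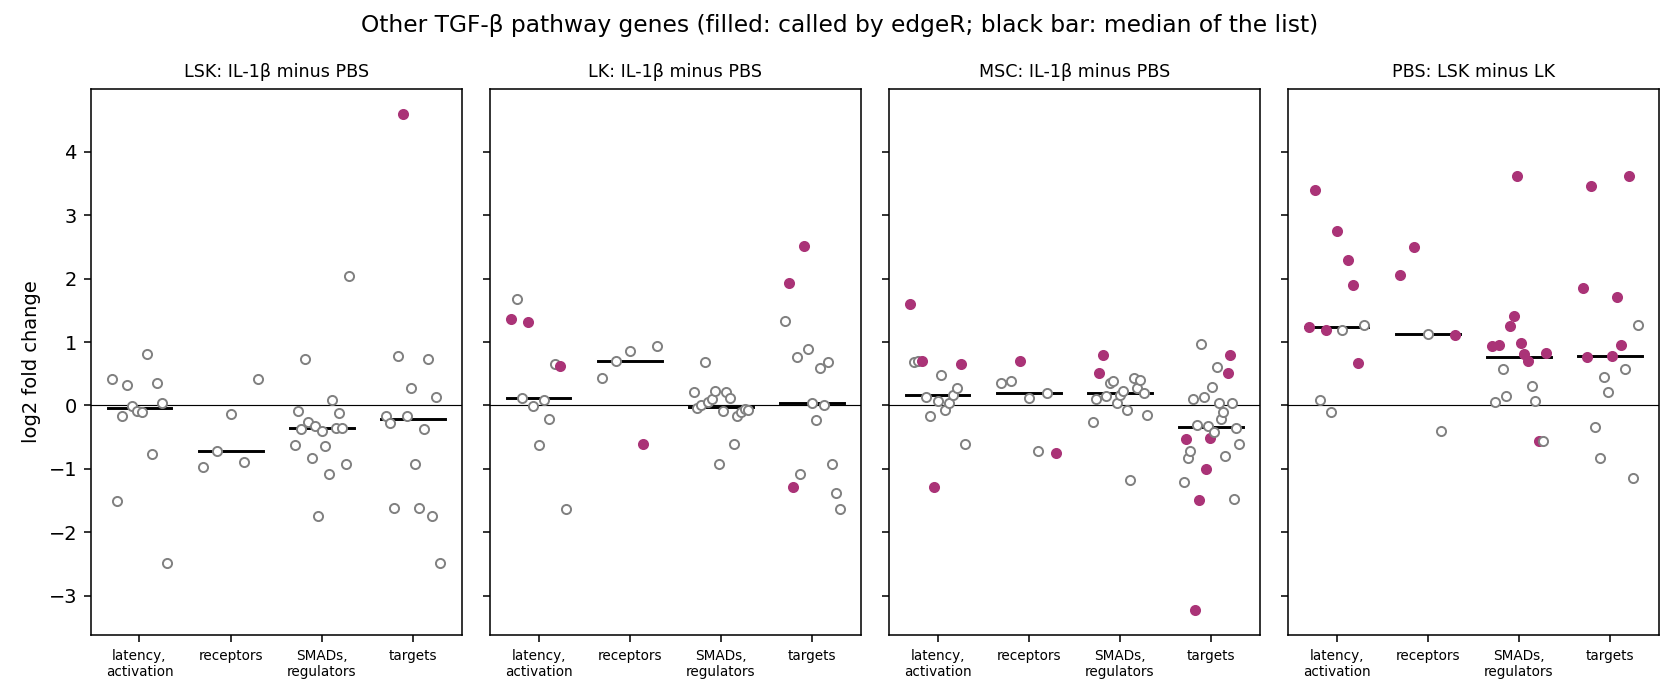
Log2 fold change (vertical axis) of the other pathway genes tested, by list (horizontal axis), in 4 comparisons, with filled points for genes called by edgeR and black bars for the median of each list. The LSK against LK panel holds most filled points, 24 of them higher and 1 lower counted over distinct genes (genes in more than 1 list are drawn in each), and Id1 at 4.60 is the single filled point in LSK cells.

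Genes whose level followed that of each member most closely over the 14 libraries were found by Pearson's r of log2 CPM among 11050 genes. These libraries share their populations, so the r values mostly describe differences between MSC and sorted cells. Tgfbr2 was most like Ptpn6 (r = 0.988), Acvr1 (0.988) and Txndc16 (0.986), and Tgfbr1 like Reep3 (0.992), Cdc42bpb (0.992) and Nceh1 (0.990). For Tgfbi they were Slfn2 (0.985), Arhgef10l (0.984) and Dcxr (0.984), and for Tgfb1 Fkbp1a (0.966), Dtnbp1 (0.964) and Ltbr (0.941). Ltbp1 was most like Fam151b (0.979), Ehd2 (0.953) and Tfe3 (0.946), and Smad7 like Tpm2 (0.975), Pdlim7 (0.963) and Azin2 (0.960). Tgfbr3, whose levels did not separate MSC from sorted cells, had the lowest values, with A230050P20Rik (0.826), Fermt3 (0.815) and H2-Q5 (0.809). Tgfb2 and Tgfb3 were under the minimum level for this comparison.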

How the data were processed

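The authors deposited raw counts, as the number of read pairs assigned to a gene in each of 14 libraries, neither normalized nor pooled. RNA was depleted of rRNA and prepared with NEBNext Ultra II kits. Per the file headers and the submitters' processing notes, reads were trimmed with fastp 0.20.0, aligned with HISAT2 2.0.1 to GRCm38 and counted with featureCounts 2.0.2 in reverse-stranded mode on Ensembl release 100 genes. Read pairs that overlapped more than 1 gene or mapped to several places were left out by its default settings. The methods also name GenomicAlignments. A further MSC library named in a file header was not analysed here.

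Groups and replicate numbers came from the sample labels. The quasi-likelihood test of edgeR 4.0.16 in R 4.3.3 was fitted to the whole table (low counts removed by filterByExpr, TMM factors, robust dispersions) separately for LSK, LK and MSC, for LSK against LK under PBS, and as an interaction over LSK and LK. Benjamini-Hochberg adjustment ran over all genes tested. FPKM was computed from the counts, the exon length in the tables and TMM factors over all 14 libraries. A floor of 3 counts and exact intervals cover counting error only. Alternatives were DESeq2 1.42.0, limma-voom (limma 3.58.1), other scaling factors (from DESeq2 or the upper quartile), leaving low counts unfiltered, blocking on the replicate number, fitting LSK and LK jointly, and each library left out in turn. Symbols matched 55141 of 55487 identifiers.

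LSK and LK libraries of the same number varied together around their group means (r = 0.15, 0.123 and 0.473 with PBS, 0.149 with IL-1β, where 2 libraries give 1 value). The replicate number was therefore used as a block, but only in an alternative fit. The main fits of LSK against LK and of the interaction treated all libraries as independent. The evidence for pairing is weak, since PBS libraries of different number reached r = 0.199 and 0.119, and the labels do not say what the number marks. The 9 genes, the pathway and marker lists and the tests were chosen with earlier results of these data known. Each of the 9 genes is named in every comparison in which it was tested. From each pathway list up to 5 called genes with the largest rise and 5 with the largest fall were eligible to be named, and for each of the 9 genes the 3 genes with the highest r among those with a mean log2 CPM of at least 1 (prior count 2). Il1r1 and Kit, kept as checks of the samples, were at 51.5 ± 7.91 and 474 ± 81.6 CPM in LSK PBS, 5.38 ± 1.41 and 302 ± 23.1 CPM in LK PBS (SD, n = 3 each), and 7.61 ± 2.40 and 2.96 ± 0.832 CPM in MSC PBS libraries (SD, n = 2). Xist, Lyz2, the receptor ratio and the fold of Tgfb3 over the floor with each PBS library left out were chosen after values were seen.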

Additional observations from a re-analysis of the deposited data

Results flagged for a closer look

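For 3 receptor genes the IL-1β libraries lay on 1 side of the PBS libraries in at least 1 sorted population and on the other side in MSC, with no overlap between the treatments in either, which is why they are listed. Of all genes tested, 39.6% in LSK cells, 45.7% in LK cells and 61.2% in MSC did not overlap between treatments. Tgfbr2 had a log2 fold change of -0.95 in LSK cells (2 of 2 IL-1β libraries below all 3 PBS libraries, edgeR adjusted p = 0.174) and 0.85 in MSC (2 of 2 above both PBS libraries, adjusted p = 0.0400), while in LK cells it overlapped between treatments, with the sign seen in MSC (0.32). Tgfbr3 had a log2 fold change of -0.26 in LSK cells (edgeR adjusted p = 0.626) and -0.48 in LK cells (adjusted p = 0.0881), against 0.98 in MSC (adjusted p = 0.0194). Tgfbr1 had a log2 fold change of 0.50 in LK cells (edgeR adjusted p = 0.0553) and -0.22 in MSC (adjusted p = 0.199), while in LSK cells it overlapped, with the sign seen in MSC (-0.07). These differences between sorted cells and MSC were not tested, since population, genotype, culture and the length and route of treatment cannot be told apart.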

How the results depend on the processing

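Of 493 values of single genes of the 9 recomputed under the alternatives, 436 kept their direction and their side of the threshold, 25 gained a call, 9 lost it and 23 changed sign. Outside the fits that leave out a library, the sign changes were those of values near 0, namely Smad7 in LK cells with upper-quartile factors (-0.00497), Ltbp1 in MSC with limma-voom (0.00166) and with no filter (0.00416), and the Tgfb1 interaction with upper-quartile factors (0.0100) and with no filter (0.0443). Leaving out 1 library gave log2 fold changes in LSK cells from -0.72 to 0.38 for Tgfbr1, from -0.00095 to 0.89 for Ltbp1 and from -0.29 to 0.10 for Smad7, in LK cells from -0.0165 to 0.58 for Tgfbr2, in MSC from -0.68 to 0.30 for Tgfb2, from -0.24 to 0.16 for Ltbp1 and from -0.40 to 0.15 for Smad7, in LSK against LK from -0.0432 to 0.11 for Tgfbr3, and in the interaction from -0.27 to 0.11 for Tgfb1 and from -0.39 to 0.0768 for Smad7.

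The number of all genes called in LSK cells was 83, with DESeq2 891, with limma-voom 21, with no filter 869, with the joint fit 1228 and from 3 to 480 with 1 library left out. In LK cells it was 1199, with no filter 1844, with the joint fit 489 and from 66 to 2409 with 1 library left out, and in MSC 1515, with no filter 2354 and from 38 to 3819. For LSK against LK it was 3980 and from 2145 to 4965 with 1 library left out. The interaction gave 4, with DESeq2 334, with limma-voom 1, with no filter 398 and from 0 to 336 with 1 library left out. Of the 9 genes, 2 were called in LSK cells with DESeq2, with no filter (including Tgfbr2, adjusted p = 0.0465) and with the joint fit, and from 0 to 1 with 1 library left out. In LK cells 2 were called with DESeq2, with no filter and with the replicate block, and from 0 to 3 with 1 library left out. In MSC 0 to 5 were called with 1 library left out. The cause was not tested.

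The replicate number is not stated to pair PBS with IL-1β libraries, whose same-numbered deviations had r from -0.151 to 0.189. With it as a block, 702 genes were called in LSK and 2331 in LK cells, where Tgfb1 (log2 fold change 0.53, adjusted p = 0.00494) and Ltbp1 (-1.43, adjusted p = 0.0110) were among them. The block between LSK and LK libraries gave 4133 genes for LSK against LK and 24 for the interaction and changed no call of the 9 genes other than that of Ltbp1. For MSC alone no fit with the block could be made, because its treatments share only replicate number 2. Within a gene FPKM is CPM divided by a constant length, so the order of the groups is the same on either scale by construction. Tgfb2 in sorted cells and Tgfb3 in LK cells were at the limit of detection at these depths.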
